A study of Bos taurus with 4 samples.

Results

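Ion channel genes were followed in chromatin accessibility data of bovine rumen epithelial primary cells (REPC). The genes were chosen by name. Every gene of the potassium channel (KCN), voltage-gated calcium channel (CACN), voltage-gated sodium channel (SCN with a digit), CLCN chloride channel and transporter, or TRPC, TRPM and TRPV cation channel families that the deposited peak table named was a member. This gave 152 of the 24886 gene names in the table. They were annotated to 3036 of the 362102 listed intervals (peaks), which merged into 981 of 115970 regions. Of these regions, 85 had a summit within 1 kb of the annotated start of a member gene and are called promoter regions here, and 896 lay farther away.

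The cells came from 1 Holstein calf (the labels spell the breed Hostein) aged 2 weeks. ATAC-seq, which reads open chromatin from the sites where a transposase can cut it, was run on 4 libraries, either untreated or after 24 h with butyrate at 5 mM. Butyrate is a short-chain fatty acid of rumen fermentation that inhibits histone deacetylases. Which pair received it is contradictory in the labels. In the library names that the values carry, 1 pair is Control and the other BT, whereas the titles and the treatment field give the opposite. The groups are therefore named Control-named (2 libraries) and BT-named (2 libraries) after the names that the values carry, which leaves the sign of every difference open to that contradiction. The study's supplement calls the libraries of a group biological replicates and does not say whether they came from separate cultures, so p-values measure only the spread between these libraries.

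Voltage-gated sodium and calcium channels open when the membrane depolarises and carry the currents of nerve and muscle, and potassium channels return the membrane to rest. In epithelia, which rarely fire action potentials, potassium channels set the driving force for ion uptake, and TRP channels carry calcium, magnesium and sodium across the cell membrane. The rumen epithelium absorbs short-chain fatty acids, sodium, calcium and magnesium from the fermented feed, and TRP channels are discussed as routes of cation uptake there. Many channel subunits are accessory proteins, which form no pore but set how the pore opens and where it sits.

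For each interval the peak table gave a summit signal (peak value) and a mean signal (average value), in the authors' own units. The Control-named libraries held 94941 and 98962 intervals and the BT-named libraries 83391 and 84808, and no listed peak value was below 21. Of the epithelial marker genes, 6 of 8 had a promoter region in all libraries, and CDH1 and TP63 had none within 1 kb. The average values of the epithelial marker promoters summed to 453 and 622 in the Control-named and 660 and 683 in the BT-named libraries, and of the 6 promoters tested those of the keratins KRT14 and KRT18 were called higher and none lower by the limma rule described below. KRT5 passed as lower as deposited only (limma adjusted p 0.011), and the median log2 fold change over the 6 was -0.04. For neuron markers, whose 4 promoters were all listed, the sums ran from 366 to 446 in Control-named and from 407 to 423 in BT-named libraries. The sums of 2 fibroblast promoters ran from 107 to 123 and from 100.2 to 129, and the single muscle promoter tested, ACTA2, gave 123 to 157 and 115 to 130.3. The single endothelial promoter tested, KDR, gave 33.8 to 39.1 and 29.8 to 33.9, and no immune marker promoter was listed in every library. The sums leave out DCN (fibroblast), DES (muscle) and CD68 (immune), whose promoters were listed in the Control-named libraries only. No marker promoter was listed in the BT-named libraries only, and those of COL1A1 and MYH11 had other patterns. Of all genes with a promoter interval, 3.18% were Control-named only and 1.66% BT-named only. The part of these marker levels in the results below was not tested.

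Channel genes took a small share of the peaks. The Control-named libraries listed 766 and 804 channel intervals, which was 0.807% and 0.812% of their peaks. The BT-named libraries listed 724 and 742, which was 0.868% and 0.875%. The mean number was 785 ± 26.9 (SD, n = 2) against 733 ± 12.7 (SD, n = 2), a difference of -52 with all BT-named libraries below all Control-named libraries. By a two-sided exact permutation test the p was 0.333, the smallest that 2 libraries against 2 allow. Within 1 kb of a channel start the libraries differed little, with 71 and 73 intervals in Control-named and 68 and 73 in BT-named libraries.

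Many channel genes had no peak at their start. A promoter region was listed in at least 1 library for 73 of the 152 genes and in all 4 libraries for 59. The other 79 genes had peaks only farther from their start. Of the 73, 3 genes had promoter peaks in both BT-named libraries and in no Control-named library (4.11%, against 1.66% of all genes with a promoter interval). One gene had them in the Control-named libraries only (1.37%, against 3.18%), and 10 had other patterns. Without BT-named replicate 1, 6 genes counted as BT-named only, and without Control-named replicate 1 or BT-named replicate 2, 3 genes counted as Control-named only.

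The 3 genes listed in BT-named libraries only all encode pore subunits of neuronal channels. CACNA1B, the pore of N-type calcium channels that trigger transmitter release, had peak values of 58 and 67 in the BT-named libraries at chromosome 11, 105394297 to 105394642 (UMD3.1). Its summit lay 16 bp upstream of the start, and a Control-named region lay 582 bp away. SCN2A, a sodium channel of brain axons, had peak values of 36 and 38 at chromosome 2, 31119681 to 31119955, where the nearest region of the other group was 50252 bp away. SCN8A, a sodium channel of nodes of Ranvier, had 37 and 40 at chromosome 5, 28405290 to 28405514. These are weak peaks, and only CACNA1B stood above a peak value of 40 in each of the BT-named libraries. A gene missing from a list may still have signal below the authors' cutoff, so these are differences in listing and not absence.

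The gene listed in the Control-named libraries only was TRPV4, a calcium-permeable channel that responds to warmth and cell swelling in epithelia. Its promoter region at chromosome 17, 65662234 to 65662644 had peak values of 55 and 78, with a CpG island and the summit 582 bp inside the gene. With a limit of 500 bp for a promoter it would not have been counted. Among genes with other patterns, KCNF1, a modifying subunit of voltage-gated potassium channels, had peak values of 80 and 74 in the Control-named libraries and was listed in BT-named replicate 2 alone, with 49. Genes whose main promoter was listed everywhere also had a neighbouring promoter region in 1 group only. KCNK17 had such a region with peak values of 69 and 74 in BT-named libraries. CLCN2, CACNA2D1 and KCND1 had one in Control-named libraries, with peak values from 28 for KCND1 to 115 for CLCN2.

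The limit of 1 kb split neighbouring values. Just inside it, the KCND1 region 996 bp from the start had peak values of 29 and 28 in the Control-named libraries only. Just outside it, a KCNQ5 region 1011 bp from the start had average values of 66.6 and 68.2 in Control-named and 54.0 and 64.0 in BT-named libraries.

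**Figure D1:**
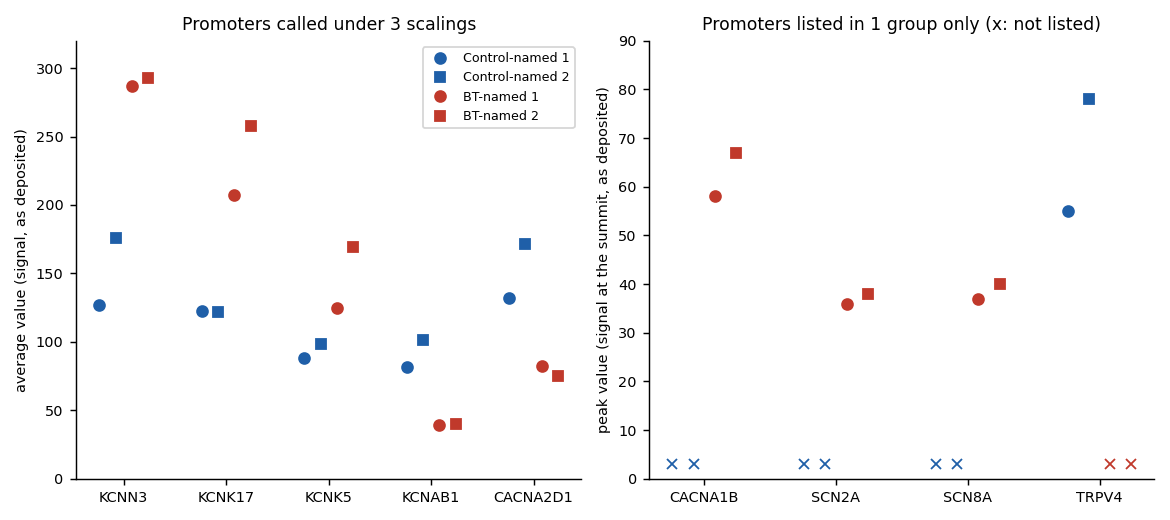
Left, average value in each of the 4 libraries for the 5 channel promoters called under 3 scalings. Right, peak value for the 4 channel promoters listed in 1 group only, with a cross where a library did not list the promoter. Blue marks Control-named and red BT-named libraries, and the groups do not overlap for any of the 5 promoters on the left. Those 5 were called from the same values, which favours such a separation.

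Channel promoters were weaker than most promoters. The median average value over the libraries was 77.9 for the 59 channel promoters and 141.1 for all 12815 genes with a promoter in all 4 libraries. A CpG island was annotated to 51 of the 59 (86.4%), against 83.0% of all promoters. The highest value was that of KCNAB2, a cytoplasmic beta subunit of potassium channels, with 340.2 and 336 in Control-named and 318 and 309.7 in BT-named libraries. This region also held the start of NPHP4, and 9 of the 59 promoters were shared with another start. CACNA1G, the pore of a T-type calcium channel, followed with 264, 307, 307 and 318 in the order Control-named 1 and 2, BT-named 1 and 2. Next were CLCN3 and CLCN6, exchangers of endosomes and lysosomes, with means of 253 and 229 over the 4 libraries, and KCNN3. The ranges over the libraries overlapped between all neighbours in this order.

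The lowest channel promoters lay near the limit of the lists. KCNS1, a modifying subunit, had average values of 23.8 and 28.5 in Control-named and 25.1 and 28.0 in BT-named libraries. CACNB4 (mean 26.5), KCND1 (35.7) and KCNK3 (38.2) were also among the lowest. The ranges over the libraries overlapped between KCNS1 and CACNB4 and between KCND1 and KCNK3, and not between CACNB4 and KCND1. By class, the median average value was 55.9 over 14 voltage-gated potassium channel promoters and 56.9 over 6 calcium channel accessory promoters, against 126 over 8 TRP and 155 over 6 chloride promoters.

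Setting the BT-named beside the Control-named libraries asked how accessibility at these genes differed with butyrate. A promoter or region was called higher or lower when limma, fitted to log2(average value + 1) over all features, gave a Benjamini-Hochberg adjusted p of at most 0.05 in the same direction with the values as deposited, after median centring and after quantile normalization. Fold changes are given on that log2 scale as deposited, BT-named minus Control-named. At the 59 channel promoters, 3 were higher (5.08%) and 2 lower (3.39%), and 54 were not called. Over all 12815 promoters, 2.82% were called higher and 4.46% lower. The median log2 fold change was -0.09 for channel promoters and -0.12 for all promoters, and centring moved every value up by 0.36. The scaling set how many single calls there were. As deposited alone, 3 channel promoters passed as higher and 9 as lower. After median centring alone the numbers were 21 and 2, and after quantile normalization alone 15 and 3. Under the rule of 3 scalings, leaving out Control-named replicate 2 gave 5 and 1. In such bulk chromatin, more cells with an open site and a wider opening in each cell cannot be told apart.

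**Figure D2:**
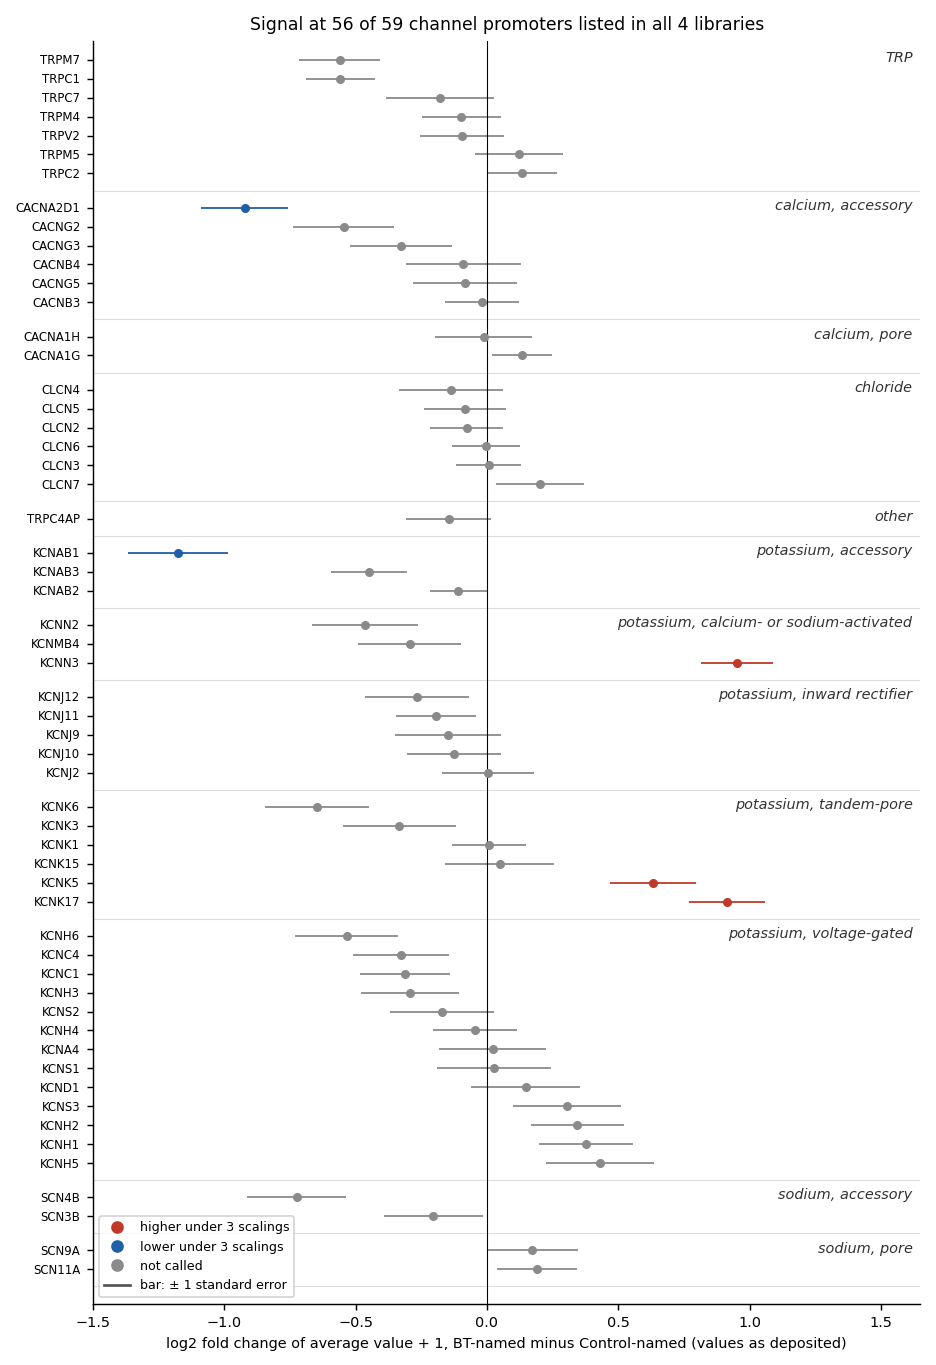
Log2 fold change of average value + 1, BT-named minus Control-named, with ± 1 standard error, for 56 of the 59 channel promoters in their classes, values as deposited. KCNN3, KCNK17 and KCNK5 (red) lie to the right and KCNAB1 and CACNA2D1 (blue) to the left, and the grey promoters were not called under all 3 scalings.

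All 3 promoters called higher belong to potassium channels that are not gated by voltage. KCNN3 encodes SK3, a small-conductance potassium channel opened by calcium. Its promoter region at chromosome 3, 15780394 to 15780920 had average values of 126.6 and 176 in Control-named and 287 and 293 in BT-named libraries. Each BT-named value was above each Control-named value, and the log2 fold change was 0.95 ± 0.14 (SE), with a limma adjusted p of 6.7e-07.

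KCNK17 and KCNK5 are neighbours and encode tandem-pore potassium channels of the alkaline-activated TALK group, which carry background potassium currents. KCNK5, also known as TASK-2, is known from kidney tubule cells. Their starts lie 77382 bp apart on chromosome 23 and both genes run on the minus strand. The KCNK17 promoter at 13172691 to 13173328 had average values of 122.4 and 121.8 in Control-named and 207 and 258 in BT-named libraries, or 0.91 ± 0.14 on the log2 scale (SE, limma adjusted p 2.5e-06). The KCNK5 promoter at 13094687 to 13095938 had 88.3 and 98.6 in Control-named and 125 and 169 in BT-named libraries. The groups did not overlap at either promoter. At KCNK5 the difference was 0.63 ± 0.16 on the log2 scale (SE, limma adjusted p 0.0034), and BT-named replicate 2 decided it. Without that library the log2 fold change was 0.41 with an adjusted p of 0.34. With peak values in place of average values, KCNK5 was at 237 and 256 against 273 and 261, and the log2 fold change of 0.12 was not called as deposited (adjusted p 0.68).

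Both promoters called lower belong to accessory subunits. KCNAB1 encodes a cytoplasmic beta subunit that speeds the closing of Kv1 potassium channels. Its region at chromosome 1, 112455246 to 112456074, with no CpG island annotated, had average values of 81.6 and 101.6 in Control-named and 39.2 and 40.2 in BT-named libraries, which did not overlap. The log2 fold change was -1.18 ± 0.19 (SE, limma adjusted p 4.0e-06). CACNA2D1 encodes the alpha-2/delta-1 subunit, which brings calcium channels to the cell surface and binds gabapentin. At chromosome 4, 38338022 to 38339212 it had 132 and 171 in Control-named and 82.5 and 75.4 in BT-named libraries. The log2 fold change was -0.92 ± 0.16 (SE, limma adjusted p 2.3e-05). This call did not hold under quantile normalization without Control-named replicate 2 (adjusted p 0.062) or without BT-named replicate 2 (adjusted p 0.059).

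Another 7 promoters passed as lower with the values as deposited and not under all 3 scalings. They were those of SCN4B, an accessory subunit of sodium channels (log2 fold change -0.72 ± 0.19, SE), KCNK6, TRPM7, TRPC1, CACNG2, KCNH6 and KCNAB3. TRPC1 also passed under quantile normalization, with a limma adjusted p of 0.045, and missed after median centring (0.098). In the other direction 18 promoters passed as higher after median centring only or after both other scalings, among them KCNH1, KCNH2 and KCNH5 of the ether-a-go-go family of voltage-gated potassium channels. As deposited their log2 fold changes were 0.38 ± 0.18, 0.34 ± 0.18 and 0.43 ± 0.20 (SE), none past the threshold. No promoter of the chloride (6 tested), inward rectifier (5), voltage-gated potassium (14), TRP (8) or sodium channel pore (2) classes was called under all 3 scalings. By limma as deposited, KCNH6, TRPM7 and TRPC1 of these classes passed.

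The regions inside and around the called genes did not all move with their promoters. The 3 genes with a promoter called higher had 15 regions beyond 1 kb that were listed in all libraries, of which 5 (33.3%, against 23.1% over all genes) were lower and 0 (against 6.4%) higher by the same limma rule. In KCNN3 a region 17496 bp inside the gene had average values of 96.0 and 139 in Control-named and 59.9 and 60.4 in BT-named libraries (log2 fold change -0.93 ± 0.17, SE). In KCNK5 a region 14821 bp from the start had 111 and 138 against 50.4 and 70.7 (-1.04 ± 0.17). In KCNK17 a region 11723 bp from the start had 183 and 162 against 105 and 82.9 (-0.88 ± 0.16), and another, 9515 bp from it, had peak values of 153 and 160 in the Control-named libraries and was not listed in the others. The groups did not overlap at any of these regions, which were picked as called or listed in 1 group only.

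The 2 genes with a promoter called lower had 34 regions beyond 1 kb. Of the 14 listed in all libraries, 2 were lower and 1 higher, where the shares over all genes were 23.1% and 6.4%. Another 10 of the 34 were listed in the Control-named libraries only and 0 in the BT-named libraries only. Over all genes these shares were 14.2% and 4.22%. In CACNA2D1 the region 15148 bp inside the gene had 225 and 244 in Control-named and 77.6 and 91.4 in BT-named libraries (log2 fold change -1.47 ± 0.15, SE). A region 135180 bp inside it had 35.1 and 48.7 against 65.4 and 55.3 (0.53 ± 0.20). The KCNAB1 region 80972 bp inside the gene had 101.4 and 98.5 against 47.2 and 37.9 (-1.22 ± 0.18).

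Most channel peaks lay beyond 1 kb of the starts, and there differences ran both ways. Of the 896 regions, 654 (73.0%) had their summit inside the channel gene, 127 downstream and 115 upstream. An annotated CpG island was found in 14.0% of the 896, which include 56 regions at the start of another gene. The share was 9.29% over all gene-annotated regions beyond 1 kb of every start, a set that leaves such regions out. The difference between these shares therefore cannot be read as a trait of channel genes. A total of 488 regions were listed in all 4 libraries, 95 in the Control-named only, 59 in the BT-named only and 254 in other patterns. Among the 488, 61 were higher (12.5%), 64 lower (13.1%) and 363 not called. To set these beside all genes, regions at the start of another gene were left out, which left 444 in all 4 libraries. Of these 13.5% were higher and 13.7% lower, whereas of all gene-annotated regions beyond 1 kb of every start 6.4% were higher and 23.1% lower. Regions near channel genes thus had a larger share of higher and a smaller share of lower calls than regions in general, a description with no test, since neighbouring regions are not independent.

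The median log2 fold change of the far regions was -0.07 for channel genes and -0.29 for all, and after median centring 0.30 and 0.07. The tested channel regions had a median average value of 70.3, against 74.5 for all. As deposited alone, 61 channel regions passed as higher and 130 as lower, after median centring alone 210 and 67, and after quantile normalization alone 165 and 75. The number higher fell to 38 without BT-named replicate 1 and to 37 without BT-named replicate 2. Regions listed in 1 group only were 7.02% BT-named and 10.6% Control-named of the 840 channel regions away from other starts, against 4.22% and 14.2% of all such regions. Without either of the BT-named libraries, 92 of the 896 regions counted as BT-named only in place of 59.

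Higher and lower regions differed in level. The 61 higher regions had a median average value of 45.4 in Control-named and 69.1 in BT-named libraries, and the 64 lower regions 124 and 55.8. With the values as deposited, the log2 differences of the lower regions ran from -0.67 to -2.30 and those of the higher regions from 0.40 to 1.17. Median centring moved every value up by 0.36, and a call had to hold before and after it. A lower region thus needed a larger change as deposited than a higher one. The number lower was 130 as deposited alone and 64 under all 3 scalings, whereas the number higher was 61 in each. These ranges therefore cannot be compared as sizes of change. Both sets had to be listed in all 4 libraries and were split by direction on these same values. A weak region that lost signal could fall below the authors' cutoff and so leave the tested set. The part of this filter and of the scalings in the differences of level and size was not tested. A CpG island was annotated to 10 of the 61 higher and 2 of the 64 lower regions, against 14.0% of all 896 channel regions beyond 1 kb. Called regions lay in 69 genes, of which 35 had higher regions only, 21 lower only and 13 both.

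**Figure D3:**
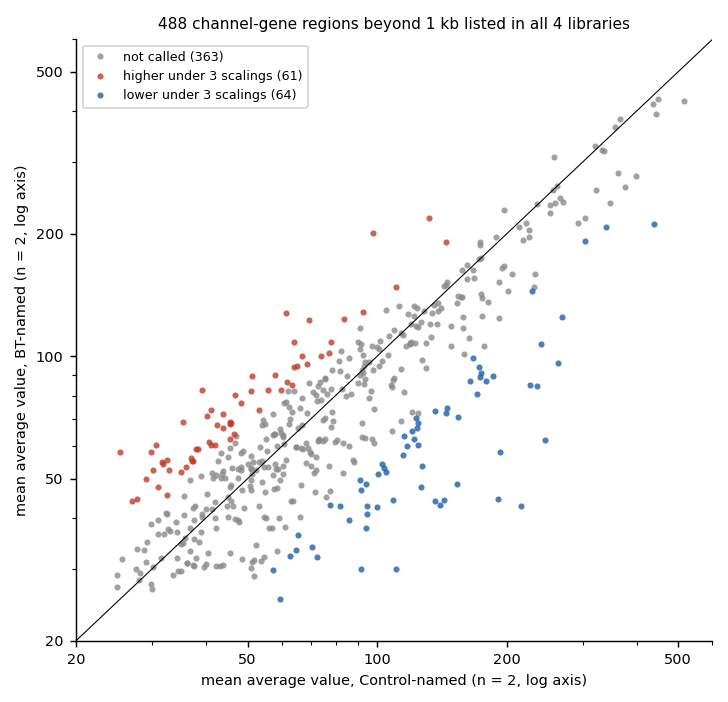
Mean average value in BT-named against Control-named libraries (n = 2 each, log axes) for the 488 channel-gene regions beyond 1 kb that were listed in all 4 libraries. The 61 higher regions (red) lie above the line of equal value and mostly at low values, and the 64 lower regions (blue) lie below it and reach higher Control-named values.

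The strongest losses lay inside genes of several families. KCNK12 (THIK-2), a tandem-pore channel, had the largest. Its region at chromosome 11, 29798166 to 29798927, 9822 bp inside the gene, had average values of 212 and 218 in Control-named and 41.7 and 44.1 in BT-named libraries. The difference was -2.30 ± 0.17 on the log2 scale (SE, limma adjusted p 3.0e-27), and a region 37390 bp inside the gene was lower as well (-1.29 ± 0.18). In TRPM3, a heat- and steroid-sensitive channel, a region 81960 bp from the start had 201 and 180.1 against 40.2 and 48.8 (log2 fold change -2.08 ± 0.17). In KCNB2, a delayed rectifier, a region at 84257 bp had 245 and 246 against 57.6 and 66.9 (-1.97 ± 0.16). In each of these regions the groups were far apart and the replicates close together, which their choice as the largest called changes favours.

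Next were regions of TRPC1, a cation channel linked to store-operated calcium entry (log2 fold change -1.85 ± 0.19, SE), KCNC4, a fast Kv3 channel (-1.72 ± 0.16), KCNQ5 (-1.70 ± 0.18), CLCN1, the chloride channel of skeletal muscle (-1.67 ± 0.17), and CACNA1C, the pore of L-type calcium channels (-1.64 ± 0.17). The TRPC1 region, 42179 bp inside the gene, had average values of 103 and 118 against 31.6 and 28.3. The groups did not overlap in any of these regions, which were also chosen by their change in the same values.

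With the values as deposited, the strongest gains were smaller. Of these, 6 of the 8 lay at accessory subunits of calcium channels or at KChIP genes, a grouping made after the regions were seen. Calcium channel accessory genes held 51 of the 488 tested regions, and potassium channel accessory genes, which include the KChIP genes, 57. CACNG6, a gamma subunit, had a region 7769 bp upstream with 24.8 and 25.6 in Control-named and 59.4 and 56.8 in BT-named libraries (log2 fold change 1.17 ± 0.19, SE). It lies at the start of MIR935 and so cannot be assigned to CACNG6 alone. KCNIP1 encodes a calcium-binding subunit (KChIP1) of Kv4 channels. Its region 299651 bp inside the gene had 34.2 and 44.2 against 77.0 and 88.5 (1.07 ± 0.19).

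CACNA2D3, another alpha-2/delta subunit, had 65.7 and 57.1 against 137 and 118 at a region 150924 bp inside the gene (log2 fold change 1.04 ± 0.17, SE). KCNIP2 (KChIP2) had 96.0 and 99.9 against 203 and 198 at 14120 bp (1.03 ± 0.15), the strongest signal among the gains named here. Regions of CACNG3 (0.96 ± 0.20), CACNB2 (0.94 ± 0.20), KCNJ1, the ROMK channel of the kidney (0.94 ± 0.20), and KCNH1 (0.83 ± 0.19) followed. In each of these 8 regions both BT-named values lay above both Control-named values, on which their choice as called regions rested.

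Among regions listed in the BT-named libraries only, those with the highest peak values lay downstream of KCNA7, a potassium channel of muscle. They had peak values of 167 and 200 at 10886 bp and 164 and 166 at 11654 bp from the start. The region at 11654 bp was only 126 bp from a Control-named region, and both are also annotated to LHB, NTF4 and RUVBL2. Regions of KCNAB2 (93 and 112), KCNN2 (66 and 133), KCNK15 (103 and 66) and CACNA1S (66 and 87) came next. The KCNN2 region, 329498 bp inside the gene of another small-conductance calcium-activated channel, lay 52330 bp from any region of the other group.

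Among those listed in the Control-named libraries only, the highest were in KCNB2 (peak values 184 and 148, 246625 bp inside the gene) and KCNK17 (153 and 160, named above). TRPC7 (118 and 161), TRPM1 (139 and 131), KCNAB2 (111 and 136) and KCNG4 (96 and 145) followed. Most regions in 1 group only were weaker, with a median peak value of 43 for the BT-named and 45 for the Control-named set, against 104 for the regions in all libraries.

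The channel classes differed in the balance of gains and losses. Calcium channel accessory genes had 12 higher and 2 lower of 51 regions in all libraries, and the 12 were spread over 8 genes, with 5 in CACNA2D3. Voltage-gated potassium channel genes had 12 higher and 23 lower of 114, and 14 of 87 were lower without KCNQ5. Tandem-pore genes had 2 higher and 7 lower of 36. Over all genes 6.4% of regions beyond 1 kb of every start were higher and 23.1% lower. In both of these potassium channel classes the share of lower regions was thus below that over all genes. The share of higher regions was above it for voltage-gated potassium channel genes and below it for tandem-pore genes. Inward rectifier genes, which hold the resting potential, had 5 higher and 1 lower of 25, sodium channel pore genes 4 and 1 of 19, and chloride genes 1 and 1 of 27.

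TRP genes had 7 higher and 10 lower of 58, calcium channel pore genes 4 and 8 of 56, potassium channel accessory genes 9 and 5 of 57 and calcium- or sodium-activated potassium channel genes 4 and 6 of 37. Sodium channel accessory genes had 1 higher and 0 lower of 6 by limma under 3 scalings. Differences between classes were not tested, since regions of a gene are not independent and a few long genes supply many of them.

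**Figure D4:**
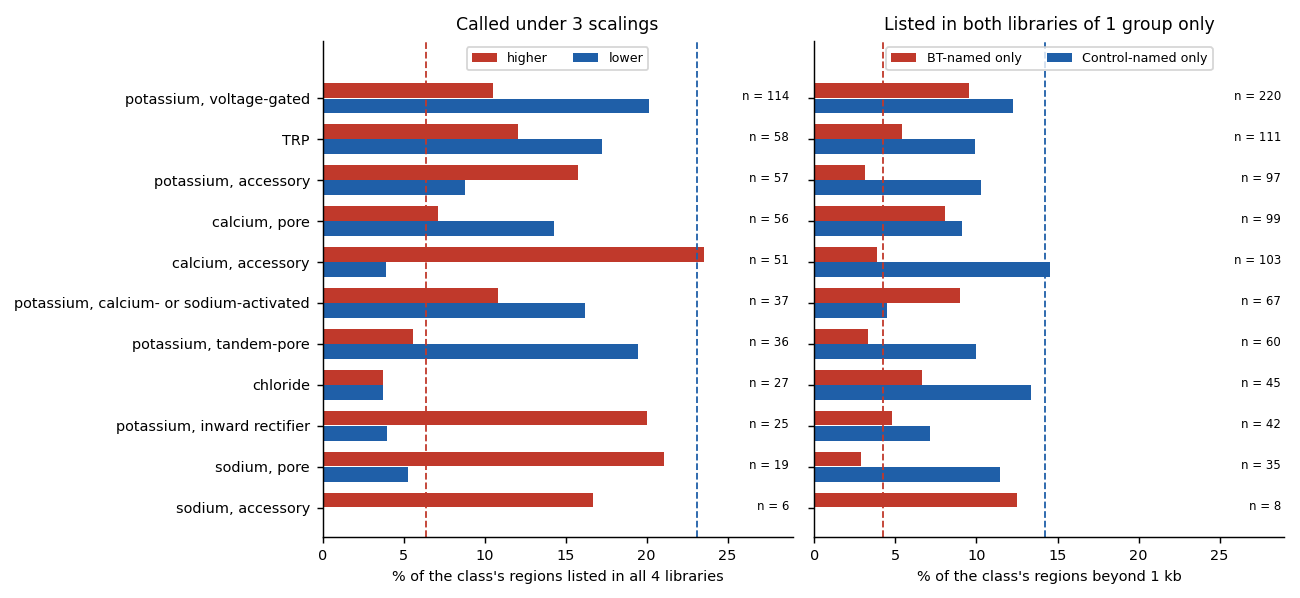
Left, percent of each class's regions beyond 1 kb, among those listed in all 4 libraries, that were called higher (red) or lower (blue). Right, percent of all its regions beyond 1 kb that were listed in both libraries of 1 group only. The number of regions stands at the right of each row and dashed lines mark the shares over all genes, 6.4% and 23.1% on the left and 4.22% and 14.2% on the right. Calcium channel accessory genes have the longest red bar on the left.

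Some long genes had called regions of 1 direction only. KCNQ5 encodes a Kv7 channel that carries M-type potassium current. It had 42 regions, more than any other member, and none within 1 kb of its start. Of the 27 listed in all libraries, 24 had a log2 fold change below 0, with a median of -0.56. By the limma rule 9 (33.3%) were called lower and 0 higher, against 23.1% and 6.4% over all genes. Over all genes the median of such regions was -0.29 as deposited, and after median centring 19 of the 27 were below 0, with a median of -0.20 against 0.07 over all genes. Of all 27, no region passed as higher with the values as deposited. The 9 lay from 5997 bp upstream to 181683 bp inside the gene, a stretch that held 17 tested regions. At 25219 bp, for example, the average values were 126 and 147 in Control-named and 43.8 and 44.2 in BT-named libraries (log2 fold change -1.60 ± 0.18, SE). At the far end of the gene, 607587 bp from the start, they were 64.5 and 61.1 against 60.6 and 79.5. Of the 42 regions, 6 were listed in the Control-named libraries only and 1 in the BT-named libraries only. These numbers were near the general shares of 14.2% and 4.22% over all genes.

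CACNA2D3 ran the other way. Of its 27 regions, 16 were listed in all libraries, 5 were higher and 0 lower by the limma rule, and 11 had a log2 fold change above 0. The lowest, -0.43 ± 0.18 (SE), passed as lower as deposited and was not called. The 5 lay between 54188 and 766764 bp inside the gene. KCNIP1 had 20 regions, with 4 higher and 1 lower of 12, and its 4 higher regions lay between 198595 and 311555 bp. Neither gene had a listed promoter region. Over all genes 6.4% of regions beyond 1 kb of every start were higher and 23.1% lower.

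CACNA1C, TRPM3 and KCNMA1 had called regions of both directions. CACNA1C had 5 lower and 1 higher of 19, TRPM3 3 lower and 2 higher of 11, and KCNMA1, the large-conductance calcium-activated potassium channel, 2 lower and 1 higher of 10. KCNH7 had 2 lower and 0 higher of 9 by limma under 3 scalings. Of its 21 regions, 5 were in the Control-named libraries only and 0 in the BT-named libraries only. Over all genes 23.1% of such regions were lower and 6.4% higher, and 14.2% and 4.22% were in the Control-named or BT-named libraries only. The counts of lower regions in these genes were thus near the general share. In TRPM3 the higher regions, 50856 and 116200 bp from the start, stood on either side of the region with the large loss at 81960 bp.

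**Figure D5:**
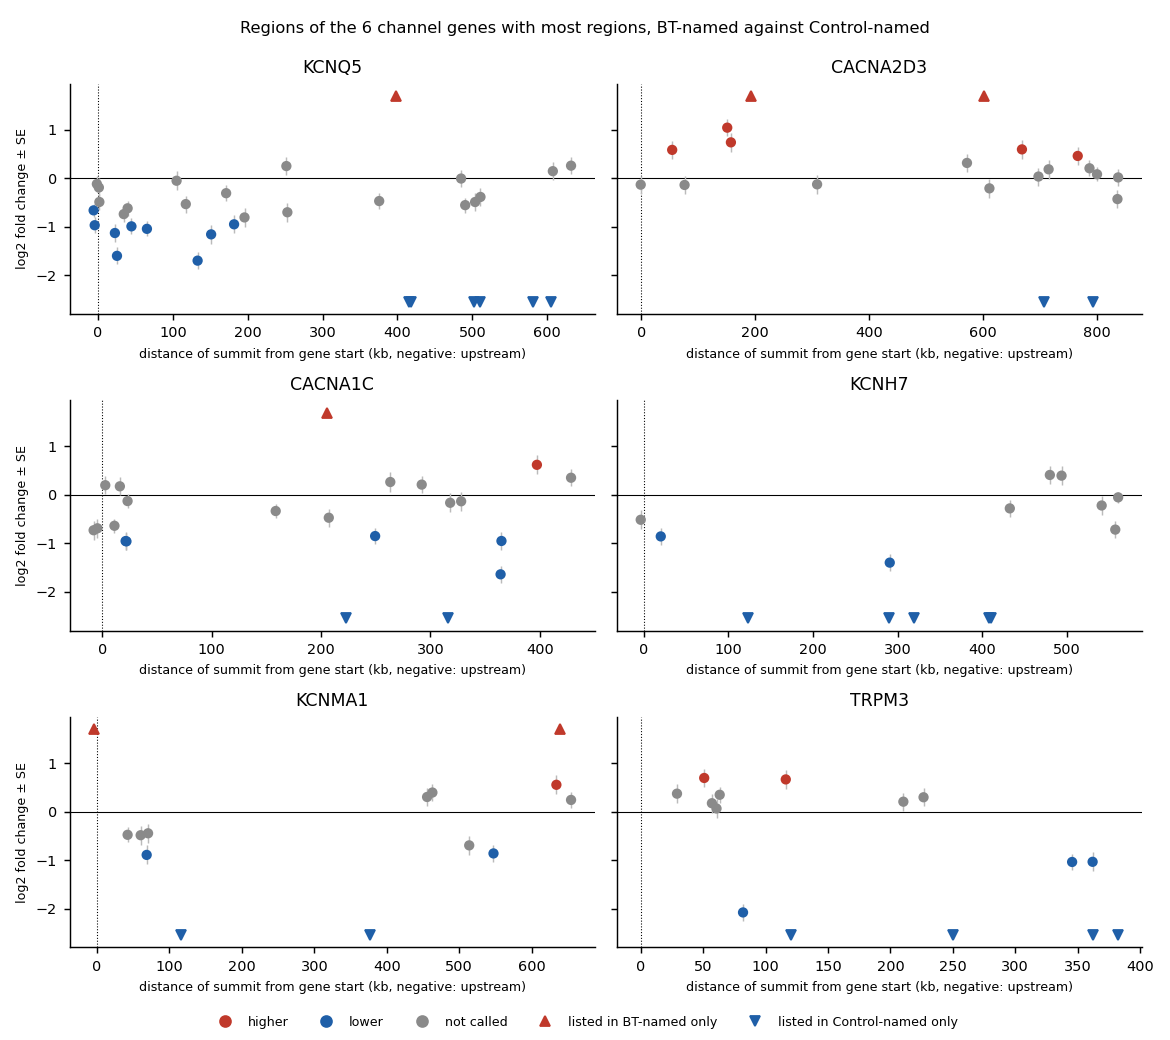
Log2 fold change with ± 1 standard error of each region listed in all 4 libraries against its distance from the gene start, in kb, for the 6 channel genes with most regions. Red and blue circles are called higher and lower, grey circles are not called, and triangles at the top and bottom mark regions listed in the BT-named or the Control-named libraries only. In KCNQ5 the 9 lower regions lie from 5997 bp upstream to 181683 bp inside the gene.

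A list of 17 channel genes known from epithelia had 7 genes with a promoter region. Of the 6 promoters tested, KCNK5 was higher and none was lower under 3 scalings, where the shares over all promoters were 2.82% and 4.46%. TRPM7, a magnesium- and calcium-permeable channel with a kinase domain, was at 144.2 and 170.0 in Control-named and 105 and 107 in BT-named libraries. It passed as lower as deposited (limma adjusted p 0.0066) and not after centring (0.18). TRPM4, KCNK1, CLCN2 and CLCN3 had log2 fold changes from -0.10 to 0.01 with standard errors from 0.13 to 0.15. The median over the 6 was -0.04, against -0.12 for all promoters.

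Beyond 1 kb these 17 genes had 62 regions in all libraries, 4 (6.45%) higher and 7 (11.3%) lower, against 6.4% and 23.1% over all genes. Of their 113 regions, 16 (14.2%) were in the Control-named libraries only and 4 (3.54%) in the BT-named only, near the 14.2% and 4.22% over all genes. The 4 higher regions lay in 4 genes. TRPV3, a warmth-sensitive channel of keratinocytes also known from the rumen, had 114 and 149.7 in Control-named and 218 and 219 in BT-named libraries at a region 57094 bp from its start (log2 fold change 0.74 ± 0.14, SE). TRPV6, the calcium uptake channel of the intestine, had 55.3 and 56.1 against 83.3 and 81.6 at 5922 bp (0.56 ± 0.18). It was the only region TRPV6 had, and that of TRPV5, its kidney relative, was not listed in every library. A region downstream of TRPV4 at 40550 bp rose from 44.6 and 40.3 to 66.0 and 69.4 (0.66 ± 0.19), while its promoter was in the Control-named lists only. The fourth lay in KCNMA1.

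The 7 lower regions lay in 4 genes, KCNN4, KCNQ1, KCNMA1 and KCNK5. KCNN4 encodes the intermediate-conductance calcium-activated channel of secretory epithelia. It had 149.3 and 197 in Control-named and 92.6 and 85.0 in BT-named libraries 1616 bp upstream of its start (log2 fold change -0.94 ± 0.16, SE) and 332 and 349 against 234 and 182 at 16720 bp (-0.72 ± 0.12). KCNQ1, which forms potassium channels of heart and epithelia, had 2 lower regions, at 144320 bp (-0.93 ± 0.19) and 308672 bp (-0.75 ± 0.16), and 5 regions in the Control-named libraries only. Its epithelial partner KCNE3 had 1 region in Control-named libraries only, 4385 bp upstream, with peak values of 30 in each. KCNJ16 had 2 regions in the Control-named libraries only. TRPM6 and KCNJ15 had no called region and none in 1 group only.

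A list of 25 channel genes known from nerve and muscle, 24 of them named in the table, had 10 genes with a promoter region. None of the 5 tested promoters, among them SCN9A, KCNC1, KCNH1 and CACNG2, was called under 3 scalings, with CACNG2 passing as lower as deposited (limma adjusted p 0.036), and the 3 genes listed in BT-named libraries only were described above. The log2 fold changes of the 5 tested promoters had a median of 0.08. Over all promoters 2.82% were called higher and 4.46% lower. Beyond 1 kb, 12 (18.5%) of 65 regions were higher and 5 (7.69%) lower, against 6.4% and 23.1% over all genes. Of all 149 regions, 22 (14.8%) were in the BT-named libraries only and 15 (10.1%) in the Control-named libraries only. Over all genes these shares were 4.22% and 14.2%. The difference from the epithelial list was not tested.

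Other channel and calcium entry genes outside the families were set beside these as a list of 44. Of their 27 tested promoters, 0 were higher and 1 lower under 3 scalings, against 2.82% and 4.46% of all promoters. With the values as deposited 0 passed as higher and 7 as lower by limma. The lower one was CLIC1, an intracellular chloride channel protein, with 186 and 211 in Control-named and 97.9 and 117 in BT-named libraries (log2 fold change -0.88 ± 0.15, SE). The median log2 fold change was -0.05.

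The study lists transcripts that butyrate raised in RNA-seq of these cells, and 22 of the channel genes stand on that list. On its list of lowered transcripts stand 0 of them. Since the list of raised transcripts comes from the same study and the direction of the labels is contested here, no agreement was tested. The accessibility values are given side by side. Of the 12 genes with a tested promoter, KCNK17 was higher, KCNAB1 lower and 10 were not called. Over all promoters 2.82% were higher and 4.46% lower. The promoters not called were those of CLCN2, CLCN4, CACNA1H, KCNH2, KCNH3, KCNJ10, KCNK15, KCNS3, TRPV2 and KCNAB3. Their log2 fold changes ran from -0.45 for KCNAB3 to 0.34 for KCNH2. KCNAB3 passed as lower as deposited only (limma adjusted p 0.023). CLCN2, KCNH2 and KCNS3 passed as higher after median centring and not as deposited. The CLCN2 region was shared with the start of POLR2H. The median over the 12 was -0.09.

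Another 10 genes of this list had no promoter region, among them CACNA1S, CACNA2D2, KCNA6, KCNG2, KCNIP2, KCNK12, KCNN1 and KCNT1. Beyond 1 kb the 22 genes had 9 (11.3%) higher and 7 (8.75%) lower of 80 regions, against 6.4% and 23.1% over all genes. The largest gain was that of KCNIP2 and the largest loss that of KCNK12, both given above. KCNT1, a sodium-activated potassium channel, had 42.3 and 51.3 in Control-named and 75.0 and 85.5 in BT-named libraries 2329 bp upstream of its start (log2 fold change 0.77 ± 0.19, SE).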

How the data were processed

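ATAC-seq libraries were made and sequenced as paired reads of 42 nt by a company. Per the study's methods and the labels, the authors aligned reads with BWA to UMD3.1, kept uniquely aligned reads and called peaks per library with MACS2. The submitters' processing notes also name Trim Galore 0.4.1. The deposited table lists intervals with 2 signal values of the authors, peak value and average value, and with annotated genes, start distances and counts of CpG islands. The scaling of this signal between libraries is not stated in any source used here. The files give no read counts, and the read totals in the study's supplement were not used, so no value carries a counting interval.

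Intervals overlapping by at least 1 bp were merged into regions, taking each library's highest value. A promoter region had a summit within 1000 bp of an annotated start, and each gene was represented by the one with the highest mean average value (12815 genes). Values of a region thus rest on intervals that differ between libraries, on average 432 and 427 bp long in BT-named and 452 and 452 bp in Control-named libraries. Coordinates count from 1. Features listed in all 4 libraries (65892 regions) were compared on log2(average value + 1) with limma 3.58.1 in R 4.3.3 (two-sided, variance trended and robust) at a Benjamini-Hochberg adjusted p of 0.05. The test was first tested on simulated data. An exact permutation test of group means was used for counts per library, in Python 3.11.15 with scipy 1.17.1. Names are as deposited, and all 152 members matched a RefSeq symbol or synonym (assembly ARS-UCD2.0, names only). Genes that overlap or share a region cannot be told apart.

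Members, lists and rules were chosen with earlier results of these data known. Genes named in the text were the called promoters (up to 12 a direction), promoters in 1 group only, the called regions beyond 1 kb of largest change (8 a direction), the strongest regions in 1 group only (6 a side), the 6 genes with most regions, the 5 highest and 5 lowest promoters, the epithelial list and the genes on the study's RNA list. Others were named after their values were seen. Some genes that the rule takes are not reported here by name, and they stay in the counts. Alternatives covered scaling, pseudocount, a filter, peak value, variance model, threshold, replicate block, left-out libraries, the promoter limit, the overlap and a peak minimum.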

Additional observations from a re-analysis of the deposited data

How the results depend on the processing

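Of 236 checks of the 5 promoters and 16 regions named as called, 231 kept direction and call, 5 lost the call (CACNA2D1 and KCNK5 promoters) and none turned. Channel promoters called higher numbered 3, and 21 after median centring alone and 15 after quantile normalization alone. Those called lower numbered 2, and 9 as deposited alone and 1 at an adjusted p of 0.01. Leaving out 1 library gave 2 to 5 higher and 1 to 2 lower. Beyond 1 kb, 61 regions were higher, and 210 after centring alone, 165 after quantile normalization alone and 40 at an adjusted p of 0.01. The 64 lower regions became 130 as deposited alone. Leaving out 1 library gave 37 to 58 higher and 55 to 59 lower. With the replicate number as a block the calls were 3 higher and 2 lower promoters and 62 higher and 71 lower regions. Differences of replicate 1 from replicate 2 did not run together in the Control-named and BT-named libraries (correlation 0.029 over regions). Whether same-numbered libraries shared a culture or a batch cannot be told from this value. Promoters listed in BT-named libraries only fell from 3 to 1 at a peak value of at least 40, and those in Control-named libraries only from 1 to 0 at a limit of 500 bp. Leaving out 1 library gave 3 to 6 and 2 to 3 of these promoters, 75 to 92 BT-named-only regions (59 in full) and 119 to 142 Control-named-only regions (95 in full), since a single remaining library then defines a group. The difference in channel intervals per library was -1.5 within 1 kb of a start against -52 in all. The causes of the other shifts were not tested. No read totals entered the tests, and a peak missing from a list may lie just below the authors' cutoff.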
